A study of Mus musculus with 9 samples.

Results

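The mitochondrial ribosomal proteins were taken as all protein-coding mouse genes whose symbol is Mrpl or Mrps followed by a number. The annotation holds 78 such genes, 49 named Mrpl and 29 named Mrps. Of these, 77 were among the 26602 genes with a count in the series, and all 77 were among the 18127 genes tested, which had at least 10 counts over all libraries. Their transcripts were counted in midbrain tissue containing the substantia nigra pars compacta from 4 DJ-1+/+ and 5 DJ-1-/- mice, 1 library per mouse, aged 3 to 4 months. DJ-1-/- mice carried on both chromosomes a targeted DJ-1 (Park7) allele, genotyped with a Neo primer and passed through the germline of a line backcrossed to C57BL/6, and the DJ-1+/+ mice came from the same heterozygous breeding. No treatment was given, and the labels do not state the sex of the mice. QuantSeq FWD 3′ mRNA-seq was used, with unique molecular identifiers. Such libraries count 1 fragment per mRNA close to its poly(A) tail, so longer transcripts do not give more counts. In whole tissue, fewer cells of a type and less RNA per cell cannot be told apart.

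The mitochondrial ribosome translates the few mRNAs that the mitochondrial genome encodes, which are core subunits of the respiratory chain and of ATP synthase. Its rRNAs are transcribed inside the organelle, whereas its proteins are all encoded in the nucleus, made in the cytosol and imported. About these proteins it is known that some descend from bacterial ribosomal proteins and others were gained in mitochondria, and that inherited defects in several of them cause respiratory chain disease. DJ-1 is a small protein linked to oxidative stress and mitochondrial function, and its loss causes an early-onset form of Parkinson's disease.

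Library totals ran from 841974 to 886085 counts in DJ-1+/+ libraries and from 967751 to 1098125 in DJ-1-/- mice, so depth and genotype cannot be told apart in these libraries, and 3 counts, the lower limit used here for a shown level, were worth between 2.73 and 3.56 cpm, where cpm gives a gene's counts per 1000000 counts of its library. The highest count of any gene in a library was between 1040 and 1359, a narrow range at the top that limits comparisons of level between abundant genes. Whether counts of the members are narrowed too, and with them their levels, fold changes and spread, was not tested. Park7 had 132, 105, 113 and 118 counts in DJ-1+/+ libraries and 23, 29, 14, 19 and 19 counts in DJ-1-/- libraries (log2 fold change −2.71, edgeR, adjusted p = 7.39e-08), which fits the labels. Xist was counted 0 and 1 times in DJ-1+/+ replicates 1 and 4 and 2 times in DJ-1-/- replicate 5, and between 146 and 193 times in each of the other libraries. Ddx3y, a Y chromosome gene, was counted 121, 113 and 152 times in those 3 libraries and at most 4 times in each of the others. By these counts the 3 libraries come from male mice, and sex was uneven between the genotypes. The summed level of 15 choroid plexus markers was between 401 and 1402 cpm in DJ-1+/+ libraries and between 423 and 548 cpm in DJ-1-/- libraries, and that of 12 cerebellar neuron markers was between 650 and 1720 cpm and between 661 and 858 cpm. All genes of both lists had a log2 fold change (DJ-1-/- over DJ-1+/+) below 0, with an unadjusted p under 0.05 for 8 of 15 and 7 of 12. Over all genes tested, 1.26% were called in that direction. DJ-1+/+ replicate 4 was highest for the first list and replicate 1 for the second, and both carry little or no Xist. Fits without both therefore also leave out every DJ-1+/+ library with high Ddx3y. The 15 dopaminergic neuron markers summed to between 683 and 1233 cpm and between 929 and 1318 cpm. Of the 15, 13 had a log2 fold change above 0, 5 of them with an unadjusted p under 0.05. Over all genes 51.9% were above 0 and 1.57% were called in that direction. In each of the lists of neuron, astrocyte, oligodendrocyte, microglia and endothelial markers, 0 of 8 genes reached an unadjusted p under 0.05. Over all genes 2.83% did, so counts of calls in lists this short say little about the balance of these cell types. Above 0 were 4, 4, 3, 6 and 0 of the 8 genes in the same order of lists, beside 51.9% of all genes. The part of these marker and Xist differences in the results on the mitochondrial ribosomal proteins was not tested beyond the values given without these libraries and with Xist in the model.

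The members lie on 17 chromosomes, with 11 on chromosome 11, 8 on chromosome 17 and 7 on chromosome 6. Of the 78, 23 (29.5%) start head to head with another protein-coding gene on the opposite strand, compared with 7.93% of the 21951 coding genes. Starts up to 1000 bases apart, or overlapping by less than 200 bases, were taken. The median distance between the starts was 66 bases, with overlaps counted as negative. RefSeq promoter windows, from 250 bases before to 50 bases after the start (GRCm38.p6), were found for 69 members, 75 windows in all. Their median GC content was 58.7%, compared with 52.7% over 32851 windows of all genes. Letters known for 3 factors that act on housekeeping and mitochondrial genes were searched on both strands. The NRF1 word GCGCATGC was present in 10.7% of the members' windows and 2.71% of all windows, the ETS word CCGGAAG in 34.7% and 8.86%, and the YY1 word AAGATGGC in 16.0% and 2.75%. The TATA word TATAAA was present in 6.67% of the members' windows and 13.6% of all windows. All windows together cover 27025 genes, more than the 21951 coding genes, and were not matched to the members in gene type or GC content. These are counts of letters, and no binding was measured.

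Shown here are the windows of the 2 members whose levels did not overlap between the genotypes (Mrpl32 and Mrpl52), of the member with the smallest p (Mrpl39) and of the small subunit member with the smallest p (Mrps12), each 5′ to 3′ on the gene's own strand. Capitals mark the NRF1, ETS and YY1 words on either strand, and overlapping matches run together. The windows lie at chr13:14612988-14613287 on the minus strand for Mrpl32, chr16:84735195-84735494 on the minus strand for Mrpl39, chr14:54426659-54426958 on the plus strand for Mrpl52 and chr7:28741772-28742071 on the minus strand for Mrps12.
Mrpl32: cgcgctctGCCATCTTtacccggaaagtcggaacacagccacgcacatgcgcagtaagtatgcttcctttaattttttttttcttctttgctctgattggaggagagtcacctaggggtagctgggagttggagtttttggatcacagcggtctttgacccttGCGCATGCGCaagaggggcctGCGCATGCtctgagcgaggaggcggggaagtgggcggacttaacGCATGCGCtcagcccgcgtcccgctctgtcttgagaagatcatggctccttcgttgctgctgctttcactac
Mrpl39: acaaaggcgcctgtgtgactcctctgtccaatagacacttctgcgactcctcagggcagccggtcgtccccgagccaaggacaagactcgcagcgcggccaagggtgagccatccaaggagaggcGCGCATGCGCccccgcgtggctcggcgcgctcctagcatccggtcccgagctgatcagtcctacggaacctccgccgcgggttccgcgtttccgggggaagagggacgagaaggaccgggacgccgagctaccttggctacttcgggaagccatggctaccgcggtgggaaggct
Mrpl52: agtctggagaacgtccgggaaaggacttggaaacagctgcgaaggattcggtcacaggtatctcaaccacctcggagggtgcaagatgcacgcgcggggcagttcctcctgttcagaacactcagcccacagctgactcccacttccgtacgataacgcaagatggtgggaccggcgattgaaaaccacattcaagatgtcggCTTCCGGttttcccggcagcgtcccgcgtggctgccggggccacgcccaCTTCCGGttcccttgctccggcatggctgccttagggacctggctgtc
Mrps12: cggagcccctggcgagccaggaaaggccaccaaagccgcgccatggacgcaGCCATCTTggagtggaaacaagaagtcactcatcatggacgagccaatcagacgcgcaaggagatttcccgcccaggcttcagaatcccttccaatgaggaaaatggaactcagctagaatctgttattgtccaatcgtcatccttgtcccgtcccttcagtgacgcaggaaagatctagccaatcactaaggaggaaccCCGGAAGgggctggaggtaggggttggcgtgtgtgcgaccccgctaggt
Mrpl32 and Mrpl39 hold NRF1 words, Mrpl32 and Mrps12 hold a YY1 word, and Mrpl52 and Mrps12 hold ETS words, so the 3 members of higher level in DJ-1-/- mice have no single word in common. The start of Mrpl32 faces that of Psma2, a proteasome subunit gene, at 75 bases, and the start of Mrps12 faces that of Sars2, the mitochondrial seryl-tRNA synthetase gene, at 172 bases.

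The mitochondrial ribosomal protein genes were counted at an even level. Of the 78 members, 67 had a mean between 50 and 130 cpm over the 9 libraries, and the quartiles were 67.1, 81.9 and 99.5 cpm. Mrpl18, a large subunit protein, was highest at 134 cpm, followed by Mrpl34 at 126, Mrpl43 at 123, Mrpl20 and Mrpl12 both at 122 and Mrps25 at 120 cpm. In single libraries Mrpl18 ran from 127 to 151 cpm in DJ-1+/+ libraries and from 126 to 143 cpm in DJ-1-/- libraries, and Mrpl34 from 100.0 to 140 cpm and from 116 to 137 cpm. The ranges of these 6 genes overlap, so their order is not larger than the spread between mice. The median was 84.0 cpm for the large subunit and 80.0 cpm for the small subunit members.

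**Figure D1:**
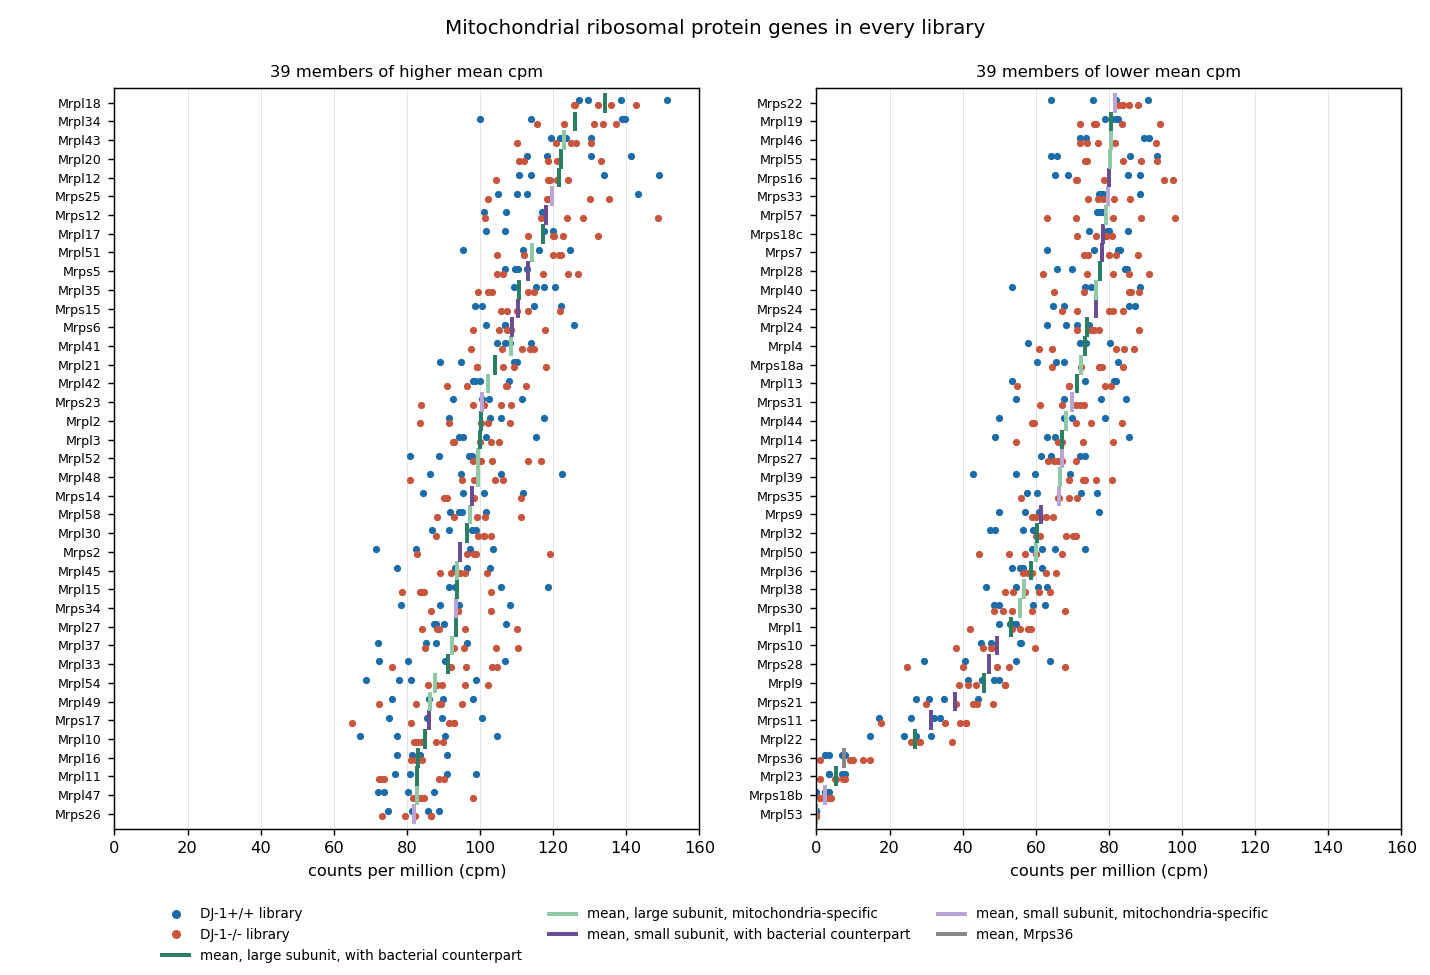
Level in cpm (x axis) of the 78 mitochondrial ribosomal protein genes in each of 4 DJ-1+/+ (blue) and 5 DJ-1-/- (red) libraries, with a vertical mark at the mean over 9 libraries, coloured by role. Most members sit between 50 and 130 cpm, and Mrpl53, Mrps18b, Mrpl23 and Mrps36 are at the lower end.

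At the lower end stood Mrpl53 with 0 counts in every library, Mrps18b at 2.31 cpm, Mrpl23 at 5.39 cpm, Mrps36 at 7.60 cpm, Mrpl22 at 27.0 cpm and Mrps11 at 31.4 cpm. A count of 0 allows a level of up to 3.56 cpm in the shallowest library. The last 300 bases of each annotated transcript, which is where these libraries are read, were compared in words of 50 bases with the transcripts of all other genes. For Mrpl53, 100.0% of the words lie in exons of a neighbour on the same strand, Gm42688. For Mrpl23, whose protein lies at the exit of the ribosomal tunnel, 99.2% are present in the processed pseudogene Mrpl23-ps1, and for Mrpl22, whose protein lines the tunnel, 33.5% are present in Gm6997. Reads from such stretches cannot be given to 1 gene, so the levels of these 3 genes are uncertain, and likewise those of Mrpl42, Mrps10 and Mrps18c, with over 20% of their words elsewhere. Mrpl23-ps1 itself had 37 counts in all, compared with 46 for Mrpl23. In contrast, 48 members had no word outside the gene.

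Members whose 3′ ends overlap a gene on the opposite strand included well-counted ones. The 3′ ends of Mrps25 and Mrps34 lie wholly (100.0%) inside exons of genes on the other strand, and these members were counted 1020 and 798 times. For Mrps18b 51.8% of the words lie inside such exons, for Mrpl24 51.0% and for Mrpl19 61.0%. The strand setting of the counting is not given in the sources used here, so reads of these overlapping pairs may not be told apart. Mrpl46 and Mrps11 overlap each other on opposite strands of chromosome 7 only where they start, and 0.0% of the 3′ words of either lie in exons of the opposite strand.

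In the comparison of genotypes, no mitochondrial ribosomal protein gene passed the adjusted threshold. The smallest adjusted p of the 77 members tested was 0.99997, and over all genes Park7 was the 1 gene (0.00552%) with an adjusted p under 0.05. At an unadjusted p under 0.05, 4 of the 77 members (5.19%) were called, compared with 2.83% of all genes tested. Mrpl39, Mrpl32 and Mrpl52 were higher in DJ-1-/- mice, where 1.57% of all genes were called in that direction, and Mrpl15 was lower, where 1.26% were. The levels of Mrpl32 and Mrpl52 did not overlap between the genotypes, which is 2.60% of the members and compares with 1.25% of all genes. DESeq2 called 1 of the 77 at an unadjusted p under 0.05, Mrpl39, beside 1.3% of all genes, and 0 after adjustment. The edgeR count was 1 without DJ-1+/+ replicate 1 (Mrpl39), beside 2.33% of all genes. It was 2 without DJ-1-/- replicate 3 (Mrpl39 and Mrpl52), beside 2.46%. With every library thinned to the same total of 841974 counts, 3 members (Mrpl39, Mrpl32 and Mrpl15) had an unadjusted p under 0.05, beside 2.78%. Since none of the 4 passed the adjustment, their values are given as a description.

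Mrpl39 (chromosome 16, 84717576 to 84735742, minus strand, GRCm38), a large subunit protein found in mitochondria and not in bacteria, had 36, 61, 47 and 53 counts in DJ-1+/+ libraries and 69, 80, 74, 71 and 83 counts in DJ-1-/- libraries. This is 42.8, 69.3, 54.7 and 59.8 cpm in DJ-1+/+ libraries and 69.1, 72.9, 76.3, 73.4 and 80.9 cpm in DJ-1-/- libraries. All 5 DJ-1-/- libraries were above 3 of the 4 DJ-1+/+ libraries, DJ-1+/+ replicate 2 lay just above the lowest DJ-1-/- library, and DJ-1+/+ replicate 1 was the lowest of all. The log2 fold change was 0.39 (standard error 0.13, unadjusted p = 0.00883, edgeR). Leaving out each library in turn gave values between 0.28 and 0.50, with a p under 0.05 in 9 of 9 fits. Without DJ-1+/+ replicates 1 and 4, the libraries rich in cerebellar and choroid plexus markers, it was 0.27 with unadjusted p = 0.0920 from edgeR's test on the 7 remaining libraries.

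Mrpl32 (chromosome 13, 14608184 to 14613165, minus strand), a large subunit protein that is trimmed by the m-AAA protease of the inner membrane before it is built into the ribosome, was measured at 47.5, 48.9, 59.3 and 56.4 cpm in DJ-1+/+ mice. In DJ-1-/- mice it was measured at 61.1, 60.1, 70.1, 68.2 and 71.1 cpm. Every DJ-1-/- library was above every DJ-1+/+ library, and the closest pair, DJ-1-/- replicate 2 and DJ-1+/+ replicate 3, lay less than 1 cpm apart. The log2 fold change was 0.32 (standard error 0.13, unadjusted p = 0.0230, edgeR). It was 0.27 without DJ-1+/+ replicate 1 (unadjusted p = 0.0657), 0.27 without replicate 2 (unadjusted p = 0.0644), 0.30 without DJ-1-/- replicate 3 (unadjusted p = 0.0504) and 0.28 without DJ-1-/- replicate 5 (unadjusted p = 0.0542), all from edgeR's test. Its head-to-head partner Psma2, at 176 cpm, had a log2 fold change of 0.06.

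Mrpl52 (chromosome 14, 54426909 to 54429756, plus strand), a mitochondria-specific protein of the large subunit, was measured at 80.8, 88.6, 97.7 and 97.1 cpm in DJ-1+/+ mice. In DJ-1-/- mice its level was 113, 100.2, 98.0, 117 and 103 cpm. The groups did not overlap, but DJ-1-/- replicate 3 was less than 1 cpm above DJ-1+/+ replicate 3. The log2 fold change was 0.22 (standard error 0.093, unadjusted p = 0.0308, edgeR). The call was lost without DJ-1+/+ replicate 1 (0.17, unadjusted p = 0.125), DJ-1+/+ replicate 2 (0.20, unadjusted p = 0.0737), DJ-1-/- replicate 1 (0.19, unadjusted p = 0.0709) or DJ-1-/- replicate 4 (0.17, unadjusted p = 0.106).

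Mrpl15 (chromosome 1, 4773206 to 4785739, minus strand), a large subunit protein with a bacterial counterpart, was measured at 106, 93.2, 119 and 91.4 cpm in DJ-1+/+ libraries and at 84.1, 103, 83.6, 78.5 and 84.8 cpm in DJ-1-/- libraries. DJ-1-/- replicate 2 lay within the DJ-1+/+ range and the other DJ-1-/- libraries lay below it. The log2 fold change was −0.23 (standard error 0.11, unadjusted p = 0.0454, edgeR). The p was above 0.05 in 6 of 9 fits with 1 library left out, those without DJ-1+/+ replicate 1 or 3 or DJ-1-/- replicate 1, 3, 4 or 5, and the fold change was weakest without DJ-1+/+ replicate 3 (−0.15, unadjusted p = 0.186).

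**Figure D2:**
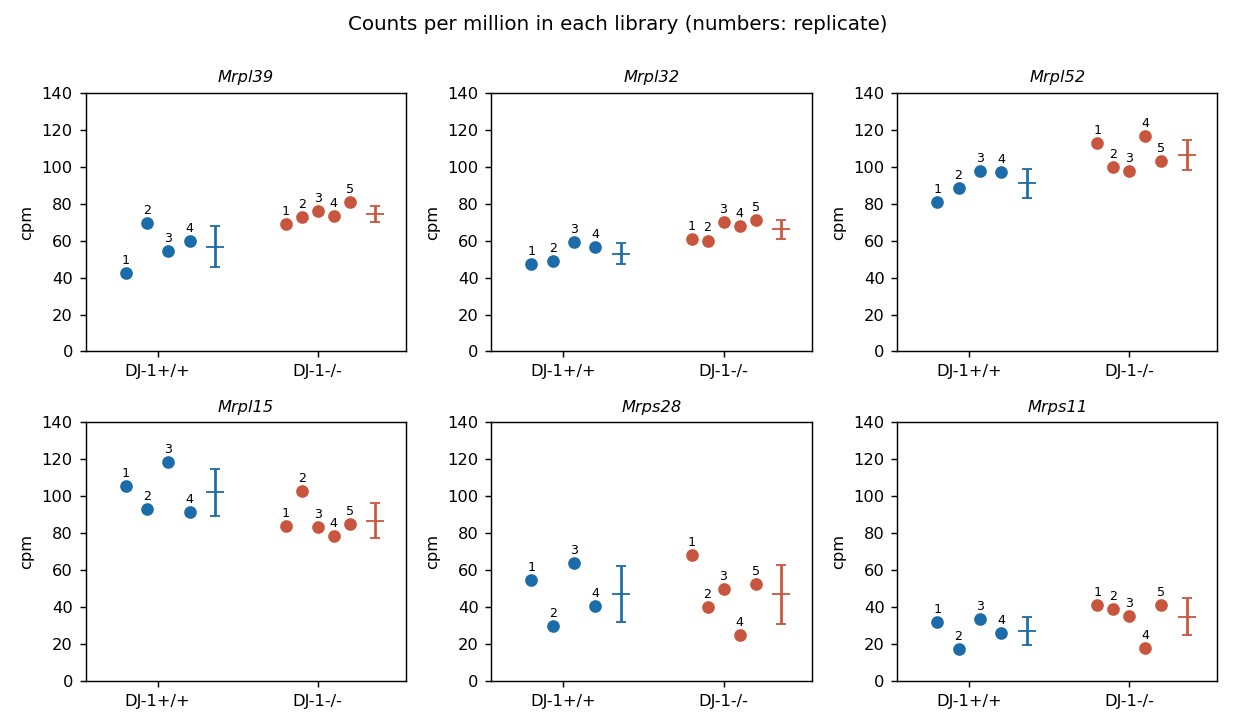
Level in cpm (y axis, from 0) of 6 members in each library, by genotype, with the replicate number above each point and the mean with its SD (n = 4 and n = 5) beside the points. Mrpl39, Mrpl32 and Mrpl52 are higher and Mrpl15 lower in DJ-1-/- mice at an unadjusted p under 0.05, while Mrps28 and Mrps11 vary within each genotype, with DJ-1+/+ replicate 2 and DJ-1-/- replicate 4 low in both.

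Over the members as a whole the differences were small. The log2 fold change was above 0 for 47 and below 0 for 30 of the 77 members, 61.0% above 0 compared with 51.9% of all genes, and its median was 0.03 compared with 0.01. The quartiles were −0.03 and 0.11, and 67 of the 77 were within 0.2 of 0. This split moved with the scaling and with the libraries taken. With RLE size factors 42 members were above 0 (54.5%, compared with 49.2% of all genes), and with thinned counts 50 (64.9%, compared with 50.1%). Without DJ-1+/+ replicates 1 and 4 it was 38 (49.4%, compared with 51.6%) with a median of −0.00. With 1 library left out it ran from 39 without DJ-1-/- replicate 3 (50.6%, compared with 50.4%, median 0.00) to 55 without DJ-1+/+ replicate 3 (71.4%, compared with 50.9%, median 0.07), and without DJ-1+/+ replicate 2 it was 43 (median 0.02). Among the 7099 genes tested with mean counts from 29.2 to 115, the members included, 50.9% were above 0 and 2.44% had an unadjusted p under 0.05.

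The median standard error of the log2 fold change was 0.11 for the members and 0.21 for all genes. For 70 of the 77 the 95% interval of the fold change lay within 1.5-fold in either direction, and for 43 within 1.25-fold. The interval held 0 for 73. The 7 with wider intervals were Mrps18b, Mrpl23, Mrps36, Mrpl22, Mrps11 and Mrps21, which are the 6 members with the fewest counts among those tested, and Mrpl39.

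**Figure D3:**
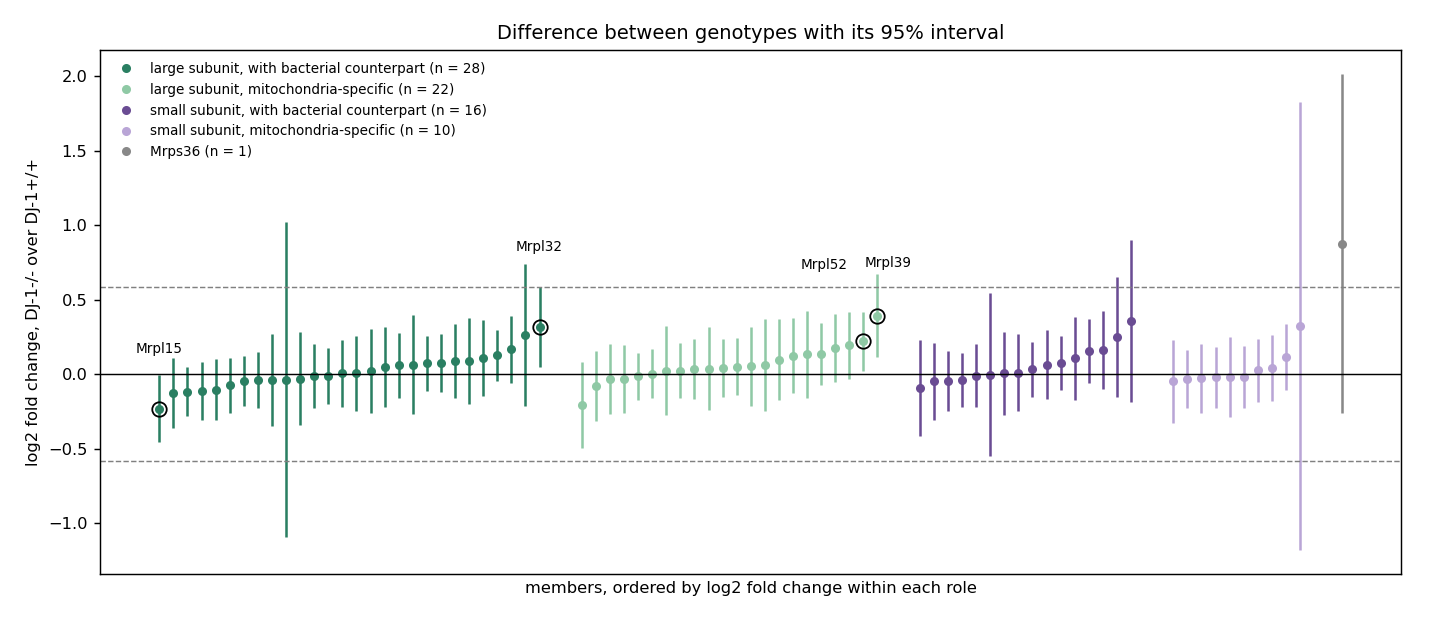
Log2 fold change, DJ-1-/- over DJ-1+/+ (y axis), of the 77 members tested, with 95% intervals, grouped by role and ordered by value, with dashed lines at 1.5-fold and rings around the 4 members with an unadjusted p under 0.05. Of the 77 intervals, 70 lie within the dashed lines, and the 4 ringed members are all in the large subunit.

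By subunit, the large subunit has 51 members and the small subunit 26, because Mrps18a and Mrps30 carry small subunit names but are part of the large subunit, and Mrps36 is a component of the 2-oxoglutarate dehydrogenase complex of the citric acid cycle. All 4 members with an unadjusted p under 0.05 belong to the large subunit, 4 of its 50 tested members (8.0%), where 2.83% of all genes were called. In the small subunit 0 of 26 were called by edgeR at that p, and the smallest p was 0.138, for Mrps12. It was called with the replicate number as a block (0.22, unadjusted p = 0.0377) and without DJ-1-/- replicate 5. In the block fit that library is alone in its block and adds nothing to the genotype difference, so the 2 fits are not separate evidence. Without DJ-1-/- replicate 4, Mrps11 was called. The difference between the subunits was not tested. The median log2 fold change was 0.04 for the large and 0.01 for the small subunit. By descent it was 0.01 for the 28 large subunit proteins with a bacterial counterpart and 0.05 for the 22 mitochondria-specific ones tested, of which 17 were above 0. It was 0.02 for the 16 small subunit proteins with a bacterial counterpart and −0.02 for the 10 without.

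The summed level of the large subunit members was 4092, 4107, 4440 and 4119 cpm in DJ-1+/+ mice and 4408, 4354, 4405, 4118 and 4110 cpm in DJ-1-/- libraries. The means were 4189 ± 167 (SD, n = 4) and 4279 ± 152 (SD, n = 5). For the small subunit the sums were 1940, 1948, 2186 and 1950 cpm and 2136, 2085, 2018, 1992 and 2031 cpm, with means of 2006 ± 120 and 2052 ± 57.7. In both subunits DJ-1+/+ replicate 3 was the highest of all libraries, and the other DJ-1+/+ libraries lay together at the lower end. Without that library the DJ-1-/- sums were higher by 0.06 on the log2 scale for the large and 0.08 for the small subunit, and with it by 0.03 for each. With all libraries the genotypes overlap and the differences of the means are smaller than the SD of either genotype. Without DJ-1+/+ replicate 3 the small subunit sums of the genotypes no longer overlap, while those of the large subunit still do. The ratio of large to small subunit counts was 2.09 ± 0.0396 in DJ-1+/+ libraries and 2.09 ± 0.0594 in DJ-1-/- mice. Together the members took 0.620 ± 0.0289% of all counts in DJ-1+/+ libraries and 0.634 ± 0.0196% in DJ-1-/- mice.

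**Figure D4:**
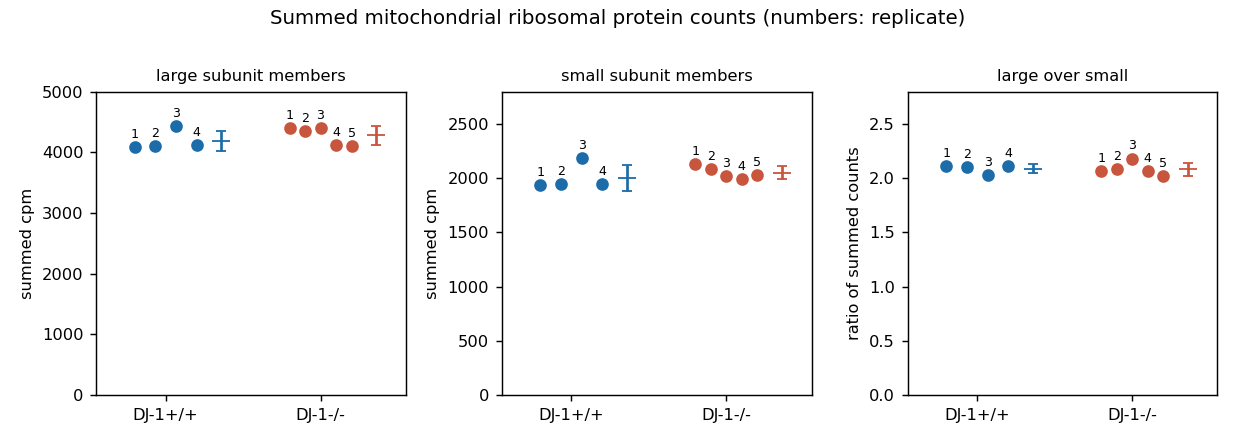
Summed cpm of the large and of the small subunit members and the ratio of their summed counts (y axes, from 0) in each library, by genotype, with the replicate number above each point and the mean with its SD (n = 4 and n = 5). Large subunit sums run from 4092 to 4440 cpm, small subunit sums from 1940 to 2186 cpm, and the genotypes overlap in all 3 panels.

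The proteins of the stalk, where translation factors bind, are Mrpl12 and Mrpl10. Mrpl12 was measured at 114, 149, 134 and 111 cpm in DJ-1+/+ libraries and 119, 121, 119, 124 and 104 cpm in DJ-1-/- libraries, with a log2 fold change of −0.11 (standard error 0.092, unadjusted p = 0.241, edgeR). The DJ-1-/- libraries lay inside or just below the wider DJ-1+/+ range. Its difference was −0.27 (unadjusted p = 0.0189, edgeR) without DJ-1+/+ replicates 1 and 4, the 2 lowest libraries of that genotype for this gene. Mrpl10, which holds Mrpl12 on the ribosome, had a log2 fold change of 0.01 (standard error 0.12). Mrpl11, at the base of the stalk, was at a mean of 86.8 cpm in DJ-1+/+ (n = 4) and 79.6 cpm in DJ-1-/- libraries (n = 5), with values from 76.7 to 98.9 cpm and from 72.3 to 90.1 cpm that overlap.

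Among members known as human disease genes, Mrpl3 was at 102 ± 9.61 cpm (SD, n = 4) in DJ-1+/+ libraries and 98.7 ± 5.71 cpm (SD, n = 5) in DJ-1-/- libraries. Mrpl44 was at 66.6 ± 12.1 and 69.6 ± 10.5 cpm, and Mrps22 at 78.1 ± 11.2 and 84.7 ± 2.17 cpm. Mrps16 was at 77.0 ± 11.6 and 82.7 ± 12.8 cpm. None of these 4 reached an unadjusted p under 0.05 with edgeR, beside 2.83% of all genes, and their log2 fold changes were between −0.04 and 0.12. Mrps12, a protein of the decoding site, was at 118, 117, 101 and 107 cpm in DJ-1+/+ libraries and 128, 124, 117, 149 and 101 cpm in DJ-1-/- libraries, with a log2 fold change of 0.16 (standard error 0.10, unadjusted p = 0.138, edgeR) and DJ-1-/- replicate 4 as its highest library. Its difference was 0.07 without that library (unadjusted p = 0.455) and 0.22 without DJ-1-/- replicate 5 (unadjusted p = 0.0379), the lowest and highest of the fits with 1 library left out. Mrpl58, a peptidyl-tRNA hydrolase built into the large subunit that releases stalled chains, had a log2 fold change of 0.04 (standard error 0.092).

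The 3 paralogues of Mrps18 differ in level. Mrps18a, in the large subunit, was at 69.0 ± 9.59 cpm (SD, n = 4) in DJ-1+/+ libraries and 75.2 ± 7.30 cpm (SD, n = 5) in DJ-1-/- libraries. Mrps18c was at 79.8 ± 4.41 and 77.4 ± 3.76 cpm. Mrps18b had 2, 2, 3 and 0 counts in DJ-1+/+ libraries and 4, 4, 1, 1 and 3 counts in DJ-1-/- libraries, at or near the lower limit of 3 counts in all of them, so that its fitted log2 fold change of 0.32 (standard error 0.71) rests on few counts. Its levels and those of the other paralogues do not overlap in these libraries. The start of Mrps18b faces that of Ppp1r10 at 45 bases, and Ppp1r10 was at 72.3 cpm. Mrps30, also in the large subunit, had a log2 fold change of 0.02 (standard error 0.14).

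The other members with the largest differences, among those with a mean of at least 10 counts, were Mrps11 and Mrpl22 upwards and Mrpl50, Mrpl11 and Mrpl35 downwards. Mrps11 was measured at 32.1, 17.0, 33.7 and 26.0 cpm in DJ-1+/+ libraries and 41.0, 39.2, 35.1, 17.6 and 40.9 cpm in DJ-1-/- libraries, with a log2 fold change of 0.36 (standard error 0.26, unadjusted p = 0.181, edgeR). All DJ-1-/- libraries but replicate 4 were above the DJ-1+/+ range, and without that library the difference was 0.51 (unadjusted p = 0.0292, edgeR). Mrpl22 differed by 0.26 (standard error 0.22), Mrpl50 by −0.20 (standard error 0.14), Mrpl11 by −0.13 (standard error 0.11) and Mrpl35 by −0.12 (standard error 0.077). Mrps36, the enzyme component, had 2, 7, 6 and 3 counts in DJ-1+/+ libraries and 10, 14, 9, 1 and 15 counts in DJ-1-/- libraries, with a log2 fold change of 0.88 (standard error 0.54, unadjusted p = 0.122, edgeR). Without DJ-1-/- replicate 4, where it had 1 count, the difference was 1.15 (unadjusted p = 0.0149, edgeR).

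Mice of 1 genotype differed little in their counts of these genes. The spread within genotypes was set against counting error as a chi-square statistic per degree of freedom. Counting alone would give 1 on average and a median somewhat below 1, so that most values would fall below 1. The median of the statistic was 0.912 over the 77 members and 1.08 over the 7099 genes of similar count. Below 1 were 62.3% of the members and 45.4% of those genes, so the members' spread was near that of counting alone. Mrpl16 had the lowest value at 0.155, with between 77.2 and 90.9 cpm in all 9 libraries.

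The widest spread was in Mrps28, a small subunit protein, at 4.90, then Mrps11 at 2.36 and Mrps36 at 2.12. Mrps28 was measured at 54.6, 29.5, 64.0 and 40.6 cpm in DJ-1+/+ libraries and 68.1, 40.1, 49.5, 24.8 and 52.6 cpm in DJ-1-/- libraries. The genotypes overlap throughout, and the log2 fold change was −0.00. DJ-1-/- replicate 4 was lowest in Mrps28 and Mrps36 and lowest of its genotype in Mrps11, and DJ-1+/+ replicate 2 was the lowest of its genotype in Mrps28 and Mrps11. Mrps28 and Mrps11 were singled out after their spread was seen. Over all 77 members, DJ-1+/+ replicate 1 was the lowest library for 16, DJ-1-/- replicate 4 and DJ-1+/+ replicate 2 for 14 each, and DJ-1+/+ replicate 3 was the highest library for 16.

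**Figure D5:**
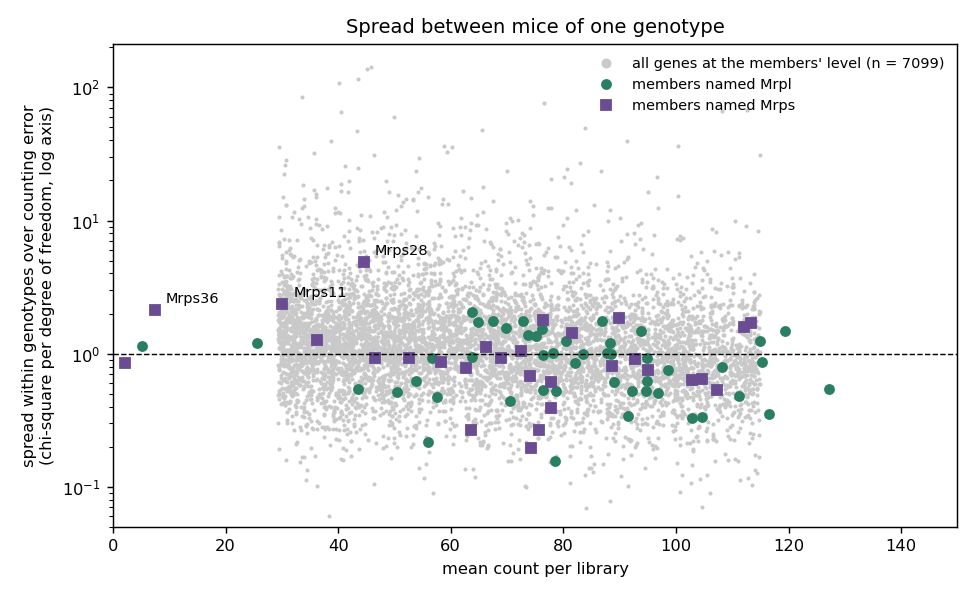
Spread within genotypes relative to counting error (y axis, log scale, chi-square per degree of freedom) against the mean count per library (x axis) for 77 members named Mrpl (circles) or Mrps (squares) and for the 7099 genes of similar mean count, members included (grey). The dashed line marks a value of 1, the average that counting alone would give, with a median somewhat below it. Of the members 62.3% lie below the line, and Mrps28 stands highest among them at 4.90.

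None of 22 head-to-head partners tested reached an unadjusted p under 0.05 with edgeR, beside 2.83% of all genes, so few calls would be found in a list of this size. The partner was lower than the member in 16 of 23 pairs, with medians of 29.8 cpm for the partners and 86.4 cpm for the members. In the other 7 the partner was higher. These were Psma2 at 176 cpm beside Mrpl32, Ndufs6, a complex I subunit gene, at 169 cpm beside Mrpl36 at 58.8 cpm, and Fau, a cytosolic ribosomal protein gene, at 149 cpm beside Mrpl49 at 86.4 cpm, Wdfy1 at 133 cpm beside Mrpl44, Gga3 at 108 cpm beside Mrps7, Ppp1r10 beside Mrps18b, and Ptcd2 at 69.9 cpm beside Mrps27 at 67.1 cpm. Sars2 was at 10.2 cpm beside Mrps12 at 118 cpm.

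On chromosome 4, which carries Park7, lie Mrpl20, Mrps15, Mrpl37 and Mrpl50. Mrpl20 is the nearest at 4.89 Mb, and its levels were 141, 118, 130 and 113 cpm in DJ-1+/+ libraries and 133, 121, 119, 111 and 112 cpm in DJ-1-/- libraries. They overlap, with a log2 fold change of −0.07 (standard error 0.087, unadjusted p = 0.415, edgeR). Mrps15, Mrpl37 and Mrpl50 lie 24.8, 43.8 and 101 Mb away. Mrpl37 was at 85.5 ± 10.1 cpm (SD, n = 4) in DJ-1+/+ libraries and 97.7 ± 9.87 cpm (SD, n = 5) in DJ-1-/- libraries, with unadjusted p = 0.0867 in edgeR's test, and a p under 0.05 without DJ-1+/+ replicate 3 or DJ-1-/- replicate 1.

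Further proteins of the mitochondrial ribosome carry other symbols. Of the 5 taken, 0 reached an unadjusted p under 0.05 with edgeR, beside 2.83% of all genes. Their log2 fold changes ran from −0.14 for Chchd1 to 0.33 for Ptcd3, with Dap3, a small subunit GTP-binding protein, at −0.02, Aurkaip1 at 0.03 and Gadd45gip1 at 0.25 (unadjusted p = 0.0691, and under 0.05 without DJ-1+/+ replicate 2 or 3 or DJ-1-/- replicate 5). Of 23 assembly factors 14 were above 0, with a median of 0.08 and a range from −0.37 for Mterf3 to 0.36 for Mterf4. In that list 1 factor, Nsun4, which methylates the small subunit rRNA and works with Mterf4, had an unadjusted p under 0.05 (log2 fold change 0.32, standard error 0.14, unadjusted p = 0.0371, edgeR). Nsun4 had 32, 32, 31 and 34 counts in DJ-1+/+ libraries and 44, 57, 43, 43 and 49 counts in DJ-1-/- libraries. Its cpm did not overlap between genotypes, the 1 such factor of the 23 (4.35%), beside 1.25% of all genes. The p was above 0.05 without any 1 of the DJ-1+/+ libraries and without DJ-1-/- replicate 2 or 5.

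Of 16 mitochondrial translation factors 15 were tested, Pdf having no count, and 11 were above 0, with a median of 0.13 and a range from −0.12 for Guf1 to 0.52 for Taco1. Mrrf, the factor that recycles ribosomes after termination, was at 47.1 ± 12.9 cpm (SD, n = 4) in DJ-1+/+ libraries and 61.7 ± 2.56 cpm (SD, n = 5) in DJ-1-/- libraries, a log2 fold change of 0.39 (standard error 0.16, unadjusted p = 0.0243, edgeR). DJ-1+/+ replicate 3 was the highest of all 9 libraries at 66.3 cpm, and the other DJ-1+/+ libraries, at 39.5 to 42.1 cpm, were below all DJ-1-/- libraries, at 58.8 to 64.1 cpm. The difference was 0.60 without that library, and the p was above 0.05 without DJ-1+/+ replicate 1, 2 or 4. Of 20 genes for charging mitochondrial tRNAs 15 were above 0, with a median of 0.14 and a range from −0.17 for Hars2 to 0.55 for Mars2. Mars2, the methionyl-tRNA synthetase, had 16, 28, 20 and 19 counts in DJ-1+/+ libraries and 38, 34, 38, 22 and 45 in DJ-1-/- libraries (standard error 0.23, unadjusted p = 0.0278, edgeR). Its cpm overlap between genotypes, and the p was under 0.05 in 3 of 9 fits with 1 library left out, those without DJ-1+/+ replicate 2 or DJ-1-/- replicate 2 or 4. Called members of these 3 lists were 1 of 23, 1 of 15 and 1 of 20, beside 1.57% of all genes in that direction, and the members above 0 (14 of 23, 11 of 15 and 15 of 20) compare with 51.9% of all genes.

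Among 10 regulators of mitochondrial and mitoribosomal genes, 5 were above 0, beside 51.9% of all genes. At an unadjusted p under 0.05 with edgeR, 0 of the 10 were called, beside 2.83% of all genes. Nrf1 was at −0.07 (standard error 0.16), Gabpa, an ETS factor, at −0.12 (standard error 0.25) and Yy1 at −0.15 (standard error 0.071, unadjusted p = 0.101). Yy1 had 108, 114, 106 and 113 counts in DJ-1+/+ libraries and 116, 123, 106, 112 and 123 counts in the deeper DJ-1-/- libraries. Its cpm, with means of 127 and 115, did not overlap between genotypes, the 1 such gene of the 10, beside 1.25% of all genes. Tfam, which packages mitochondrial DNA, was at 0.02 (standard error 0.092), and the range ended at 0.22 for Polrmt, the mitochondrial RNA polymerase.

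The transcripts that these ribosomes contain or translate were counted too, though their counts depend on polyadenylation. Of 14 mitochondrially encoded RNAs tested 4 (28.6%, beside 51.9% of all genes) were above 0, and the median was −0.10. Of the same 14, 4 (28.6%, beside 2.83% of all genes) had an unadjusted p under 0.05, 2 in each direction. The small subunit rRNA mt-Rnr1 was at 444 cpm in DJ-1+/+ libraries and 409 cpm in DJ-1-/- libraries, a difference of −0.12 (standard error 0.063, unadjusted p = 0.0731, edgeR). The large subunit rRNA mt-Rnr2 was at 396 and 370 cpm, a difference of −0.10 (standard error 0.079, unadjusted p = 0.238, edgeR). Both reached a p under 0.05 without DJ-1-/- replicate 3, where mt-Rnr2 was at −0.17, and mt-Rnr1 also without DJ-1+/+ replicate 2. The 2 called lower were mt-Nd4l (−0.37, unadjusted p = 0.0175, edgeR), in all 9 fits with 1 library left out, and mt-Cytb (−0.21, unadjusted p = 0.0315), which was at −0.12 without DJ-1+/+ replicate 1 and also lost its call without DJ-1-/- replicate 2, 3 or 5. The cpm of mt-Nd4l did not overlap between genotypes, the 1 such gene of the 14 (7.14%), beside 1.25% of all genes. Those called higher were mt-Co2 and mt-Atp6, but mt-Co2 had 126 counts in DJ-1-/- replicate 1 and at most 2 in each of the other 8 libraries. For mt-Atp6 the counts were 3, 1, 22 and 5 in DJ-1+/+ libraries and 31, 17, 81, 2 and 79 in DJ-1-/- libraries, which overlap. The gene mt-Co3, not called, had 5, 0, 3 and 0 counts in DJ-1+/+ and 16, 5, 2, 0 and 1 in DJ-1-/- libraries. In contrast, mt-Co1 had at least 340 counts in every library. Why these 3 genes had low and uneven counts was not tested, and both calls upward rest on such counts.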

How the data were processed

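Midbrain RNA of 4 DJ-1+/+ and 5 DJ-1-/- mice was sequenced with QuantSeq 3′ mRNA-seq FWD from 100 ng of total RNA (RNeasy Mini kit). The authors deposited, for each mouse, raw UMI counts per Ensembl gene, with no normalization and only genes with a count listed. The submitters' processing notes name GRCm38, fastp 0.20.0, STAR 2.7.3a, Subread featureCounts 2.0.0 and UMI-tools 1.0.0, with no role or order, and the strand setting is not given in the sources used here. A gene not listed in a library was given 0 counts. Symbols and positions came from GENCODE M21, which lacks 32 of the 26602 identifiers (0.0344% of counts).

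Genes whose counts summed to at least 10 were tested in R 4.3.3 with edgeR 4.0.16 (TMM, glmQLFit and glmQLFTest, genotype as the only term, as in the study), two-sided, with Benjamini-Hochberg adjustment over all genes. Standard errors are the log2 fold change over the square root of F, and intervals are 95%. Errors taken from p instead left 70 and 43 intervals within 1.5-fold and 1.25-fold, as with F. For 23 members, though, the error from p was over 1.05 times that from F. A printed standard error can therefore be smaller than the p beside it implies, as for Yy1 among the listed genes. A count divided by the library total gives cpm, and 3 counts were the lower limit for a shown level, which covers counting error only. Each library is a different mouse, but litters and cages are not tied to libraries. The edgeR fit was tried on simulated counts in which 200 genes changed by 1.5 on the log2 scale. At an adjusted p under 0.05 it recovered 172 of them and called 16 unchanged genes. Differences as small as those of the members were not simulated.

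The members and lists, and the rule for named genes (the highest and lowest levels, an unadjusted p under 0.05, no overlap between genotypes, the largest differences, and set members of known role), were chosen with earlier results of these data known. Roles of members follow general knowledge. Promoters are RefSeq windows (GRCm38.p6) matched by symbol, and Mrpl4, Mrpl13, Mrpl15, Mrpl19, Mrpl38, Mrpl54, Mrps28, Mrps34 and Mrps35 were not matched. Alternatives were RLE size factors, library totals, DESeq2 1.42.0, other filters, Xist as a covariate, a replicate block, counts thinned to 841974 per library and left-out libraries. A comparison without members of shared 3′ ends was added after the data were seen.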

Additional observations from a re-analysis of the deposited data

Results flagged for a closer look

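In 7 of 62 groups of libraries examined, 1 library stood apart from the others by Dixon's test at 95%, where chance gives about 1 in 20, or 3.1. Mrpl12 was at 104 cpm in DJ-1-/- replicate 5 and between 119 and 124 cpm in the other DJ-1-/- libraries. Mrpl15 was at 103 cpm in DJ-1-/- replicate 2, compared with 78.5 to 84.8 cpm in the others. Mrpl22 was at 37.1 cpm in DJ-1-/- replicate 3, compared with 25.8 to 28.3 cpm. Mrps11 was at 17.6 cpm in DJ-1-/- replicate 4, from 17 counts, compared with 35.1 to 41.0 cpm. DJ-1+/+ replicate 3 stood apart in the summed level of the large subunit members, at 4440 cpm beside 4092 to 4119 cpm, and in that of the small subunit members, at 2186 cpm beside 1940 to 1950 cpm. Its ratio of large to small subunit counts was 2.03, compared with 2.11 in each of the other DJ-1+/+ libraries. These sums share their libraries and totals, so the 3 values are not separate evidence.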

How the results depend on the processing

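The count of members with an adjusted p under 0.05 was 0 under every alternative run. The count with an unadjusted p under 0.05, 4 in the report, was 1 with DESeq2 (Mrpl39), beside 1.3% of all genes. It was 2 with the replicate number as a block (Mrpl39 and Mrps12), beside 3.15%, and 1 without DJ-1+/+ replicates 1 and 4 (Mrpl12), beside 2.66%. With single libraries left out it ran from 1, without DJ-1+/+ replicate 1 (Mrpl39), to 4, and it was 2 without DJ-1-/- replicate 3 (Mrpl39 and Mrpl52). Over all genes the share then ran from 1.9%, without DJ-1-/- replicate 2, to 4.1%, without DJ-1+/+ replicate 2. Members called in such a fit and not with all libraries were Mrpl54, Mrpl37, Mrps11, Mrps36 and Mrps12. The count was 4, or 3 with thinned counts, in the other settings, beside 2.46% to 3.01% of all genes. It was also 4 without the 6 members with shared 3′ ends, and with Xist as a covariate Mrpl12 took the place of Mrpl52. The median log2 fold change of the members was between −0.0011 and 0.036 in these settings and between 0.00027 and 0.066 with a library left out. The log2 ratio between genotypes ran from 0.019 to 0.060 for the large subunit sum, from 0.017 to 0.077 for the small subunit sum and from −0.020 to 0.0071 for the ratio of both.

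The sign turned for members of small difference. Mrpl10 was at −0.0044 with RLE size factors and with DESeq2, at −0.00082 with the filter of 1 cpm in 4 libraries, at −0.0051 with Xist as a covariate and at −0.0071 without DJ-1+/+ replicates 1 and 4. Mrps30 was at −0.034 with Xist as a covariate, Mrpl43 at 0.017 with the block and Mrps18c at 0.028 with thinned counts. Without DJ-1+/+ replicates 1 and 4, Mrpl3 was at 0.061, Mrps16 at −0.064, Mrps22 at −0.023, Mrps25 at −0.062, Mrps30 at −0.12 and Mrps18b, at its few counts, at −0.16. With single libraries left out, Mrpl10 ran from −0.099 to 0.12, Mrpl18 from −0.085 to 0.0068, Mrpl23 from −0.22 to 0.22, Mrpl3 from −0.076 to 0.025, Mrpl34 from −0.036 to 0.12, Mrpl43 from −0.039 to 0.015, Mrpl44 from −0.061 to 0.15, Mrpl58 from −0.0081 to 0.082, Mrps18b from −0.080 to 0.69, Mrps25 from −0.014 to 0.14 and Mrps30 from −0.052 to 0.084. The cause was not tested.

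The replicate numbers were not taken to pair the mice. Same-numbered libraries of the genotypes had correlations of 0.28, 0.04, −0.10 and −0.17 over 12637 genes, and DJ-1-/- replicate 5 has no partner. Libraries of different number ran from −0.35 to 0.52. These values cannot show whether mice shared litters, cages or batches. Depth limits the 10 members under 50 cpm, and for Mrps18b, Mrpl23 and Mrps36 a change of 1.5-fold would not be detectable. Whether such a change would pass the adjusted threshold in the other members was not tested.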
